A study of Mus musculus with 6 samples.

Results

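Nuclear receptors are transcription factors that bind DNA through zinc fingers and, in most cases, are switched by a small fat-soluble ligand. The receptors described here are 37 genes of that family outside the ERR, NR4A and NR1D groups, measured in hearts labelled ERRα-null, in which the estrogen-related receptor gene Esrra is the target, and in wild-type hearts. They were chosen by name, and each gene was read from the brightest of its probe sets that the platform table assigns to a single gene. Of the 37 genes, 35 had such a probe set, among 18193 genes that did, and the 35 had 92 probe sets in all. Nr1h2 and Nr2e3 were not analysed here. A filter on dim probe sets left 27 of the 35, among 12946 genes tested.

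The study compared 3 hearts from male mice labelled as ERRα-null (KO) with 3 from male wild-type (WT) mice, all under basal conditions, with 1 Affymetrix Mouse430_2 array for each heart. The labels give the strain C57BL/6J and an age of 2 to 3 months for all 3 KO mice and for WT 2 and WT 3, and neither for WT 1. They do not describe how the allele was made. A comment in the array header of WT 1 numbers it as WT 3, and the title was used.

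Several of these receptors are known regulators of the heart. PPARα and PPARδ sense fatty acids and drive their oxidation, thyroid hormone receptors set the balance of myosin and calcium pump genes, and the glucocorticoid and mineralocorticoid receptors act in cardiac muscle itself. Many bind DNA as a pair with a retinoid X receptor (RXR), at repeats of the short half-site AGGTCA. ERRα binds a related extended half-site as an orphan receptor, with no known natural hormone.

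The targeted gene was read first. Esrra had signals of 180.1, 24 and 18 in the libraries labelled KO 1, 2 and 3, against 368.1, 394.4 and 349.1 in WT 1, 2 and 3. The library labelled KO 1 held 48.6% of the WT mean, against 6.48% in KO 2 and 4.86% in KO 3, which goes against its label. That library is part of every value below except where it is said to be left out. The log2 difference of Esrra was -2.58 (SE 0.283, limma adjusted p = 3.8e-09). The labels do not say whether the probe set lies within the deleted part. Median signals per array were 13.4 to 13.7 in KO and 12.4 to 16 in WT, with WT 1 the brightest, and WT 1 was also the highest of the 6 hearts for 12 of the 27 receptors tested. The summed signal of 6 cardiomyocyte markers was 41320 to 43722 in KO and 42549 to 47757 in WT, and none of the 6 passed the test. All 7 atrial myocyte markers with a probe set rose in the libraries labelled KO, with summed signals of 13901 to 16594 in KO and 2977 to 9701 in WT, and 3 of the 7 passed without WT 1. In whole tissue, fewer cells of a type and less RNA per cell cannot be told apart.

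Among the receptors, the brightest signals in WT heart came from the glucocorticoid receptor, PPARα and the orphan receptor TR4. Nr3c1, which encodes the glucocorticoid receptor, gave 381, 279.2 and 288.6 in WT 1, 2 and 3, with a mean of 316 ± 56.3 (SD, n = 3). Ppara gave 414.4, 278.4 and 244.8, with a mean of 313 ± 89.8. Nr2c2, the gene of TR4, gave 368.5, 225.9 and 256.2. The 3 ranges overlapped, so the order among them was not resolved. Another Ppara probe set had a higher WT mean, 348 ± 81.2, than the probe set used. Probe sets differ in how strongly they bind, so the order is one of signals and not of transcript numbers. The mean WT signals of these 3 genes lay above those of 88.3% to 89.6% of all genes with a probe set.

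**Figure D1:**
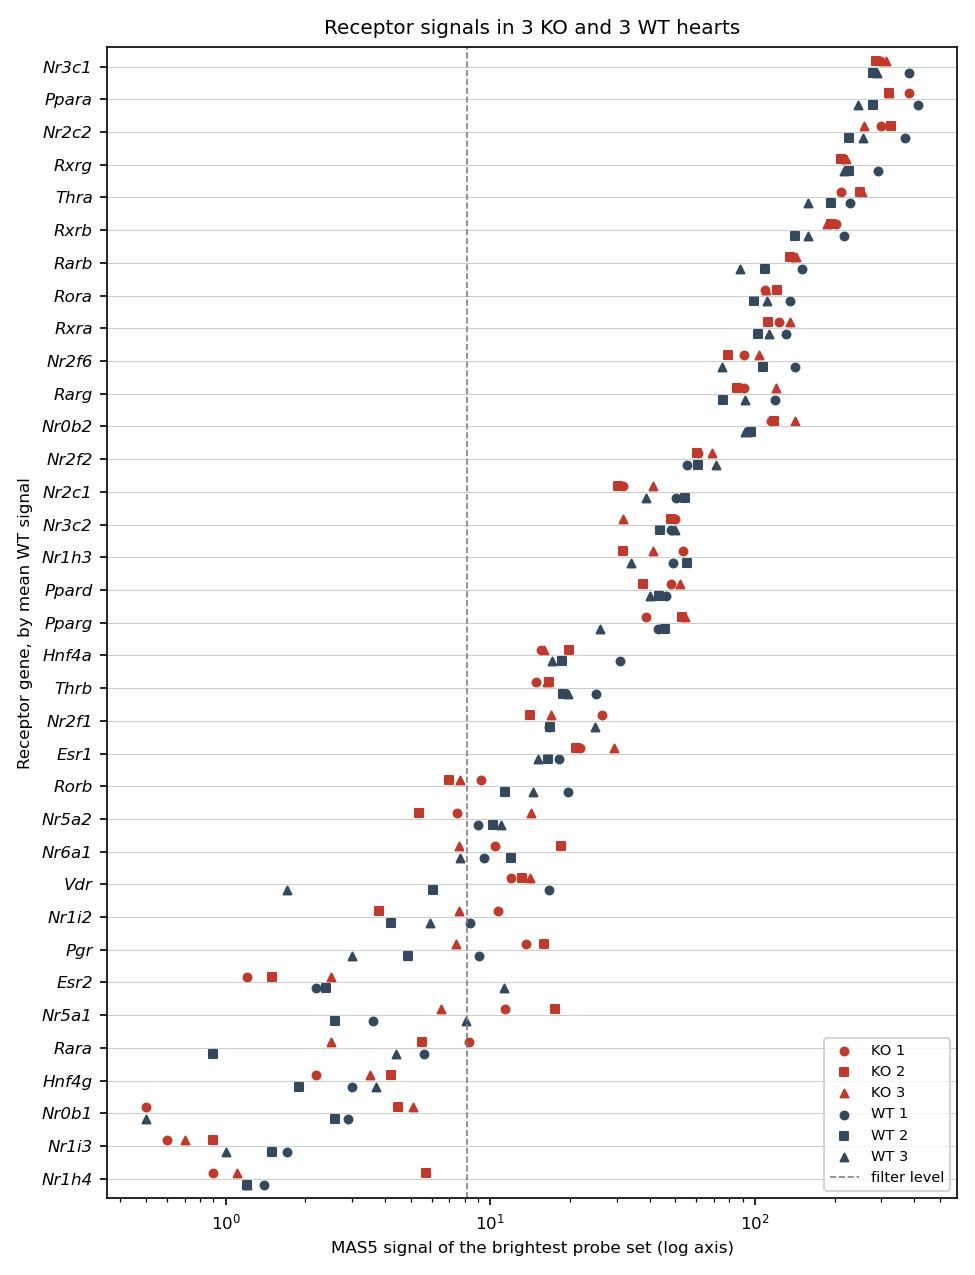
MAS5 signal of the brightest probe set of 35 receptor genes on a log axis, sorted by mean WT signal, with the 3 KO hearts (red) plotted above the 3 WT hearts (dark slate) for each gene. WT means run down from 316 for Nr3c1 to 1.27 for Nr1h4. The KO and WT points do not overlap for 4 of the 27 receptors tested, against 16.2% of all genes tested. Of these 4, Rorb is kept by the filter through WT alone. The dashed line marks the filter level of 8.17.

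The heterodimer partners and the thyroid hormone receptor came next. Rxrg, the RXR isoform of striated muscle, had a WT mean of 246 ± 40.6, Thra, the main thyroid hormone receptor gene of the heart, 194 ± 35.6, and Rxrb 172 ± 39.1 (SD, n = 3 each). Rxra, the most widely studied RXR, was at 115 ± 14.4. Thrb, the other thyroid hormone receptor gene, was far dimmer, with a mean of 21.2 ± 3.40. Rxrg, Thra and Rxrb were each above the next gene in the order in all 3 WT hearts, although the ranges over hearts overlapped.

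Retinoic acid receptors and several orphan receptors filled the middle of the order. Rarb had a WT mean of 116 ± 31.6 and Rarg 95.5 ± 22.1, while the single Rara probe set gave 5.6, 0.9 and 4.4 in WT 1, 2 and 3. Rora, an activator of clock genes, was at 115 ± 18.7 and Nr2f6, an orphan receptor of the COUP-TF group, at 108 ± 33.4. Nr0b2 encodes SHP, which lacks a DNA-binding domain and represses other receptors, and is best known from the control of bile acid synthesis in liver. Its single probe set gave 95.6, 96.6 and 91.7, the tightest spread of any receptor at this level. Nr2f2, the gene of COUP-TFII, a factor of atrial myocytes and venous endothelium, was at 62.5 ± 8.0.

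Below these lay Nr2c1 (TR2, the sister of TR4), Nr3c2 (the mineralocorticoid receptor), Nr1h3 (the oxysterol receptor LXRα), Ppard and Pparg, with WT means from 47.9 down to 38.2. Pparg, the regulator of fat cells, gave 43.1, 45.6 and 26 in WT 1, 2 and 3. Hnf4a, Thrb, Nr2f1 and Esr1 had means between 16.6 and 22.2. Esr1 is the estrogen receptor α gene. Of the 34 steps between neighbours in the whole order, only 3 separated genes whose WT ranges did not overlap. These steps lay below Nr0b2, below Nr2f2 and below Rorb, and they divided the order into runs of 12, 1, 10 and 12 genes. Only neighbours were compared. Vdr in the last run, at 1.7 to 16.6 in WT, overlapped Rorb, at 11.4 to 19.7. The last run and the one above it were therefore not wholly apart.

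The last run held Rara, the vitamin D receptor and receptors known from liver, gut, gonad and adrenal. In WT hearts 25 of the 35 genes had a mean at or above the filter level, a signal of 8.17. The 8 genes below the filter over the 6 arrays were Nr1i2, Esr2, Nr5a1, Rara, Hnf4g, Nr0b1, Nr1i3 and Nr1h4, and their signals ran from 0.5 to 17.6 in KO and from 0.5 to 11.3 in WT. No detection calls were used, and signals this low may be no more than background. Nr1i3, the xenobiotic receptor CAR, gave 0.6, 0.9 and 0.7 in KO 1, 2 and 3 against 1.7, 1.5 and 1 in WT, and Nr5a1, the steroidogenic factor SF-1, gave 11.4, 17.6 and 6.5 in KO against 3.6, 2.6 and 8.1 in WT. With no filter all 35 receptors were fitted and 0 passed, and the limma adjusted p was 0.499 for Nr5a1 and 0.92 for Nr1i3.

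Promoter windows were read for the receptors from RefSeq (GRCm38.p6), from 250 bases before to 50 bases after each annotated start. They covered 33 of the 37 genes in 50 windows. The extended half-site of ERR receptors, TNAAGGTCA on either strand, was found in none of the 50 windows and in 1.28% of all 32851 windows. Its core, AAGGTCA, was in 3 of the 50, belonging to Rxrg, Rxra and Nr6a1, and in 4.72% of all windows. The plain half-site AGGTCA, which the core contains, was in 11 of the 50 and in 16.3% of all. A match is a run of letters and not a site of binding, and its absence says only that those letters are not in this window. A retinoic acid repeat (GGTTCA, then any 5 bases, then AGTTCA) was in the Rarb window. Only 2 of all 32851 windows held it. It was searched in this spelling alone, so its rarity is that of these letters. The windows of Rxrg and Rxra that hold the core are shown, as are that of Rarb and that of Nr0b2, the receptor with the smallest p. Each is 5′ to 3′ on the strand of the gene, with half-sites (either strand) and the retinoic acid repeat in capitals. The Rxrg window is chr1:167618015-167618314 on the plus strand, the Rxra window chr2:27709042-27709341 plus, the Rarb window chr14:16575427-16575726 minus and the Nr0b2 window chr4:133553126-133553425 plus.
Rxrg: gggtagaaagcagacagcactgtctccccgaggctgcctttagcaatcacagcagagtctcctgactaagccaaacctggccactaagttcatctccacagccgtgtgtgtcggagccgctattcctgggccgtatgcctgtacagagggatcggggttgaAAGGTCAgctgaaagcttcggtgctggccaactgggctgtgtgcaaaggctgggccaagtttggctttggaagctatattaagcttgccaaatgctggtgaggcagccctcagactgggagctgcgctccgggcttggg
Rxra: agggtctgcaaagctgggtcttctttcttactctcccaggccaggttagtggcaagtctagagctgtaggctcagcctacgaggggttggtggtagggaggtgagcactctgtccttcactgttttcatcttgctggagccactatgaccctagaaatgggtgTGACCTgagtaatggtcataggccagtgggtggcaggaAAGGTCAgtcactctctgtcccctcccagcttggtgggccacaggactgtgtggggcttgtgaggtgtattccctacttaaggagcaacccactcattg
Rarb: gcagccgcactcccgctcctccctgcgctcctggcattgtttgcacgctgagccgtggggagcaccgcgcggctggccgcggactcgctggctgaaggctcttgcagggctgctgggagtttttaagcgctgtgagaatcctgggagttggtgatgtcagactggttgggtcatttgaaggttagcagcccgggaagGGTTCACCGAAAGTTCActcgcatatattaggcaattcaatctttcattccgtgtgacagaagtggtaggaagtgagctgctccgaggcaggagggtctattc
Nr0b2: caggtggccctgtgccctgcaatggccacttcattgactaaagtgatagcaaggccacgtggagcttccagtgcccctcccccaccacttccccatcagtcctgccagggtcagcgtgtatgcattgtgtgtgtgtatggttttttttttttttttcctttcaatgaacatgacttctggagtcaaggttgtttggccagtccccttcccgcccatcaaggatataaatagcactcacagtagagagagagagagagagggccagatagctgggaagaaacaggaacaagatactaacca

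The AAGGTCA run began 89 bases before the annotated start in the Rxrg window and 49 bases before it in the Rxra window, and the repeat in the Rarb window 53 bases before it. The Rxra window also holds the plain half-site on the other strand. The Nr0b2 window holds none of the letters searched.

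The comparison of KO with WT hearts addressed whether receptor transcripts differ in hearts labelled ERRα-null. None of the 27 receptors tested passed, in either direction, at a limma adjusted p under 0.05, against 2.97% of all 12946 genes (231 or 1.78% higher and 153 or 1.18% lower). At an unadjusted p under 0.05 there was 1 receptor, Nr0b2, against 12.5% of all genes. On the log2(signal + 16) scale, 0 of the 27 differed by more than 1.5-fold, against 3.62%. As plain ratios of mean signals 3 of the 27 did, KO over WT, with Rorb at 0.524, Vdr at 1.61 and Pgr at 2.18. These same 3 reached the filter level in only 1 group, Rorb in WT and Vdr and Pgr in KO. The filter kept them through the group where they were high. They stay in the counts given here but support none of them. The log2 differences of the 27 ran from -0.37 to 0.39, and those of the 24 that reached the level in both groups from -0.34 (Nr2c1) to 0.34 (Nr0b2). Of the 27, with Rorb, Vdr and Pgr included, 15 were above and 12 below 0. Their median was 0.05, while the median of all genes was -0.03. With a pseudocount of 1 the dim genes spread further, Rorb to -0.83, Vdr to 1.02 and Pgr to 1.05, with adjusted p of 0.597, 0.621 and 0.625. All 27 of the 95% intervals lay between -0.83 and 0.87 on the log2(signal + 16) scale, so none of them reached a 2-fold difference on that scale, which understates the change of dim genes. Without the library labelled KO 1, 0 receptors passed, against 3.93% of all genes. The count was also 0 without WT 1, against 0.981%, and with quantile normalization, against 3.43%.

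**Figure D2:**
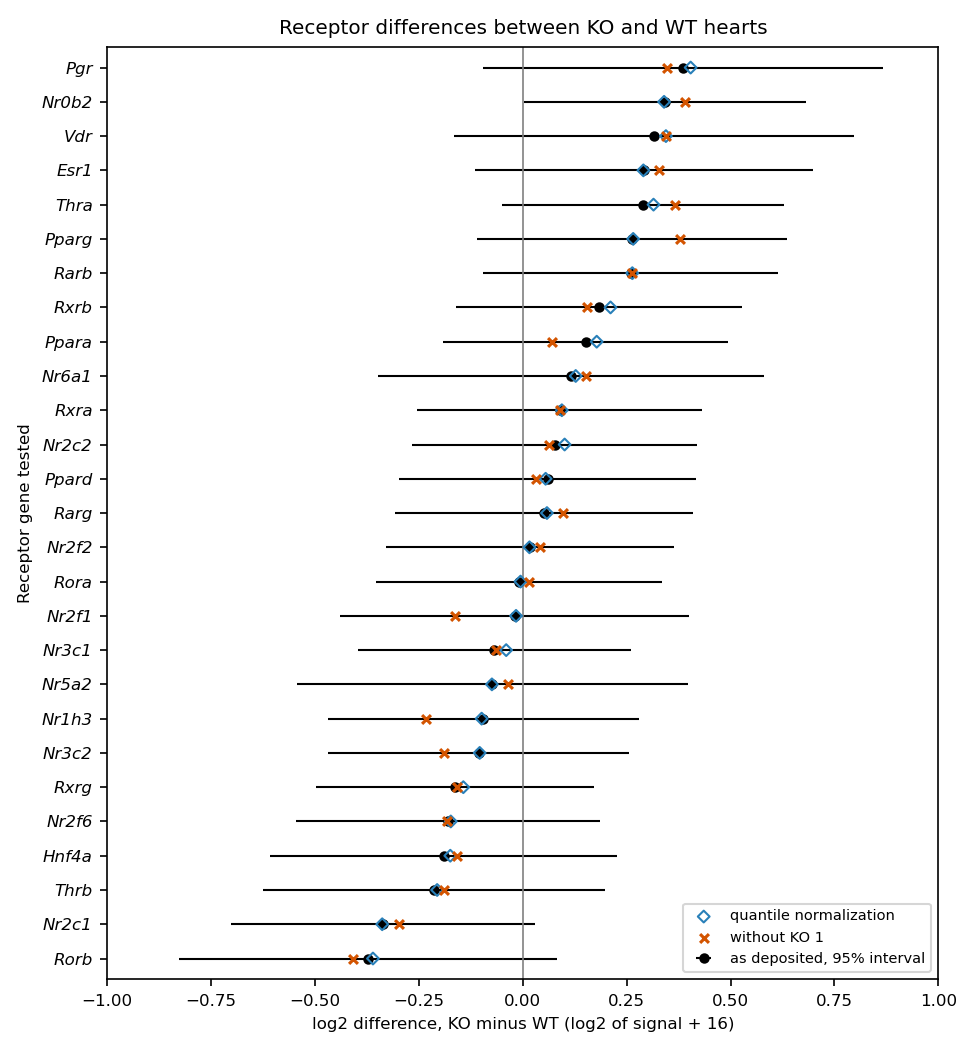
Log2 difference, KO minus WT, on log2 of signal plus 16, for the 27 receptors tested (filled circles with 95% intervals, 3 KO and 3 WT hearts), with the values after quantile normalization (open diamonds) and without KO 1 (crosses). The differences run from 0.39 for Pgr to -0.37 for Rorb, both kept by the filter through 1 group only, and the interval of Nr0b2 alone stays above 0.

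The 3 KO and 3 WT hearts did not overlap for 4 of the 27 receptors, against 16.2% of all genes. Higher in every library labelled KO were Nr0b2 and Esr1 (6.81% of all genes), and lower were Thrb and Rorb (9.41%). Rorb was kept by the WT hearts alone, so its place in this and the following counts is no support. Without the library labelled KO 1 the counts were 4 higher and 2 lower, against 11.6% and 16.5% of all genes. Without WT 1 they were 9 higher and 2 lower, against 22.4% and 10.5%. Those 9 include Vdr and Pgr, which the KO hearts alone kept.

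Nr0b2 (SHP) had signals of 115.1, 117.9 and 141.1 in KO 1, 2 and 3, against 95.6, 96.6 and 91.7 in WT 1, 2 and 3. The lowest KO heart stood above the highest WT heart. The log2 difference was 0.34 (SE 0.169, 95% interval 0.0020 to 0.68), with a limma p of 0.0487 and an adjusted p of 0.394. Over the 22 alternative settings the difference stayed between 0.25 and 0.40 and the adjusted p between 0.108 and 0.858. Among the receptors it held places 9, 9 and 8 in KO 1, 2 and 3, against 12, 11 and 9 in WT, within a stretch of the order whose steps were not resolved.

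Esr1 gave 21.9, 21 and 29.3 in KO 1, 2 and 3, against 18.2, 16.5 and 15.2 in WT, so KO 3 was the highest heart and the KO and WT hearts were separated by a narrow gap. Its log2 difference was 0.29 (SE 0.202, limma adjusted p = 0.634). Thrb gave 14.9, 16.7 and 16.4 in KO against 25.1, 18.9 and 19.6 in WT, with WT 1 above the rest. The log2 difference was -0.21 (SE 0.205, limma adjusted p = 0.762). Rorb, a receptor known from brain and retina, gave 9.2, 7 and 7.7 in KO against 19.7, 11.4 and 14.5 in WT, with a mean ratio of 0.524. Its KO mean of 7.97 lay under the filter level, and the WT hearts alone kept it. Esr1, Thrb and Rorb were dim in both groups.

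**Figure D3:**
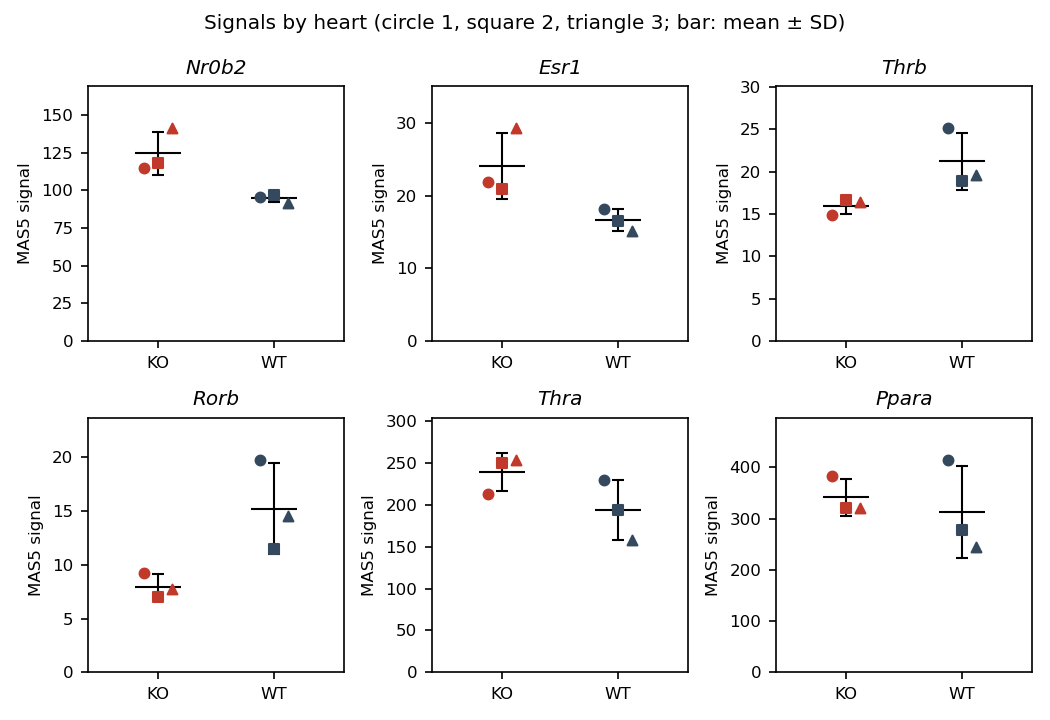
MAS5 signal in each heart (circle 1, square 2, triangle 3) for 6 receptors, KO on the left and WT on the right, with horizontal bars at the mean and whiskers of 1 SD (n = 3 each). Nr0b2, Esr1, Thrb and Rorb are the 4 of 27 tested receptors whose hearts do not overlap, against 16.2% of all genes tested. Rorb was kept by the filter through WT alone. Thra and Ppara overlap, with KO means of 239 and 342 against WT means of 194 and 313.

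None of the PPAR genes passed the test. Ppara gave 382.8, 320.7 and 321 in KO 1, 2 and 3, within the WT range of 244.8 to 414.4. Its log2 difference was 0.15 (95% interval -0.19 to 0.49), but its 3 probe sets were at 0.15, -0.22 and 0.28. Ppard had a log2 difference of 0.06 (95% interval -0.30 to 0.42). Pparg gave 38.6, 52.9 and 54.2 in KO against 43.1, 45.6 and 26 in WT, a log2 difference of 0.26 (95% interval -0.11 to 0.64, limma adjusted p = 0.64). Of the 6 adipocyte markers tested, 4 rose (Adipoq, Cidec, Retn and Ucp1) (1 with quantile normalization and 0 without WT 1), with summed signals over the 7 markers with a probe set of 3755 to 4561 in KO and 3588 to 4381 in WT and no marker at 0. Fabp4, at 3255 or more in every heart and a log2 difference of -0.06, made up most of these sums. Ucp1 gave 16.7, 49.5 and 2.7 in KO 1, 2 and 3 against 1, 1.8 and 0.7 in WT. The KO hearts alone kept Ucp1 above the filter. Cidec overlapped between the groups, with KO 1 at 11.6 and WT 1 at 12.2. Cidea gave 187.3, 216.2 and 118.7 in KO 1, 2 and 3 against 297.6, 230.6 and 257.8 in WT, with an adjusted p of 0.0648, and of 0.0442 without KO 1. Their part in the Pparg values was not tested.

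None of the thyroid hormone and retinoid receptors passed either. Thra gave 212.3, 250.2 and 253.3 in KO 1, 2 and 3, against 229.3, 193.8 and 158.2 in WT, so that WT 1 lay above KO 1. The log2 difference was 0.29 (SE 0.169, limma adjusted p = 0.519), and its 3 probe sets, which share the same hearts, were all positive, from 0.10 to 0.29. Its adjusted p reached 0.0573 with quantile normalization and without KO 1, the lowest of any receptor in any setting. Rarb, whose window holds the retinoic acid repeat, gave 137.9, 135.3 and 143.1 in KO against 150.2, 108.9 and 88.1 in WT. The KO hearts all fell inside the WT range, and the log2 difference was 0.26 (SE 0.176, limma adjusted p = 0.625). The RXR genes, of which Rxra and Rxrg have a window with the AAGGTCA core, were at 0.09 for Rxra, 0.18 for Rxrb and -0.16 for Rxrg. Their limma adjusted p ran from 0.751 to 0.905. A dimmer Rxra probe set above the filter was at -0.24. The second probe set of Rarg had a log2 difference of 0.45, while the brighter one was at 0.05.

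Nor did the steroid receptors. Nr3c1 gave 296.1, 286 and 312.4 in KO 1, 2 and 3, inside the WT range of 279.2 to 381, and its log2 difference was -0.07 (95% interval -0.40 to 0.26). Nr3c2 was at -0.11 (95% interval -0.47 to 0.26), with KO 3 at 31.8 and the other hearts between 43.6 and 49.8. Pgr, the progesterone receptor gene, had signals of 13.7, 16 and 7.4 in KO against 9.1, 4.9 and 3 in WT. Those values overlapped, and its WT mean of 5.67 lay under the filter level, so the KO hearts alone kept it.

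None of the orphan receptors passed. Nr2c1 gave 31.8, 30.5 and 41.3 in KO 1, 2 and 3, against 50.5, 54.4 and 38.7 in WT. KO 3 was above WT 3, and the log2 difference was -0.34 (SE 0.182, limma adjusted p = 0.468). All 4 Nr2c1 probe sets above the filter were negative, from -0.48 to -0.10. The probe set at -0.48 had a KO mean of 5.8, under the filter level, against 14.3 in WT. The WT hearts alone kept it, so it is no support, and the other probe sets overlapped between the groups. Nr2c2 was at 0.08 (95% interval -0.27 to 0.42), and its 4 probe sets above the filter ran from -0.24 to 0.12, with 2 of them positive. Nr2f2 gave 60.7, 60.3 and 68.8 in KO against 55.5, 60.7 and 71.2 in WT, a log2 difference of 0.02 (95% interval -0.33 to 0.36), and a dimmer Nr2f2 probe set was at 0.38. Nr2f1, its paralogue, was at -0.02, and the part of the atrial markers in either value was not tested. Rora was at -0.01, and Nr2f6 at -0.18. Hnf4a, Nr5a2, Nr6a1, the oxysterol receptor gene Nr1h3 and the vitamin D receptor gene Vdr had log2 differences from -0.19 to 0.32. Their limma adjusted p was at least 0.674. The value of 0.32 was that of Vdr, which the KO hearts alone kept above the filter.

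The order of the receptors in KO hearts was close to that in WT hearts. Over the 35 genes the rank correlation of KO with WT mean signals was 0.972, as a description of values that share probe sets and arrays. Ranked among the 27 tested alone, no gene moved by more than 4 places. Ppara had the highest KO mean, 342 ± 35.8, with Nr3c1 at 298 ± 13.3 and Nr2c2 at 295 ± 34.1 (SD, n = 3 each). The KO range of Nr2c2 overlapped those of both others, and it ranked first in KO 2. The KO ranges of Ppara and Nr3c1 did not overlap for the probe sets used. Another Ppara probe set gave 302.4, 284.1 and 284.5 in KO 1, 2 and 3, which overlapped Nr3c1. The order of Ppara and Nr3c1 in KO therefore depended on the probe set.

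Genes that work with the receptors, or respond to them, were read from lists made with earlier results of these data known. Of the 14 coactivators tested none passed, with a median of -0.02, and 1 was higher with quantile normalization (Crebbp, limma adjusted p = 0.0383). Of 7 corepressors 1 fell, Nrip1 (RIP140), a corepressor of metabolic receptors and of ERRα itself. Nrip1 gave 131.4, 146 and 130.8 in KO 1, 2 and 3, against 217.2, 194 and 237.6 in WT, and the groups were well apart. Its log2 difference was -0.61 (SE 0.167, limma adjusted p = 0.0278), with an adjusted p of 0.0882 without KO 1 and 0.0622 without WT 1. Of 13 genes of ligand supply and ligand binding none passed.

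Of 10 PPAR responsive genes 6 fell and none rose, with a median of -0.62. An earlier reading of these data already showed such a list to be low. Ehhadh, the peroxisomal bifunctional enzyme, gave 23.9, 31.5 and 28.1 in KO 1, 2 and 3, against 54.6, 61.5 and 67.4 in WT (log2 difference -0.82, limma adjusted p = 0.00321). Plin5, a lipid droplet protein of oxidative tissue, gave 364.9, 279.5 and 306 in KO against 572.8, 491.1 and 466.7 in WT (limma adjusted p = 0.00827). Both genes were lower in every library labelled KO. The others that fell were Ucp3, a mitochondrial carrier (-1.68), Angptl4, an inhibitor of lipoprotein lipase (-1.66), Acot1, an acyl-CoA thioesterase (-0.94), and Slc25a20, the carnitine-acylcarnitine carrier (-0.58). Without KO 1 the count was also 6, and without WT 1 it was 3.

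Of 12 glucocorticoid responsive genes 3 rose and none fell, with a median of 0.35 and 11 of the 12 positive. Fkbp5, a chaperone partner that damps glucocorticoid receptor signalling, gave 137, 113.6 and 137.5 in KO 1, 2 and 3, against 55.4, 65 and 56.9 in WT, with a wide gap between the groups. Its log2 difference was 0.95 (SE 0.171, limma adjusted p = 0.000182). Tsc22d3, which encodes the glucocorticoid-induced leucine zipper protein, gave 516, 423.3 and 596.5 in KO against 371, 287.6 and 300.4 in WT (log2 difference 0.65, limma adjusted p = 0.0123). Cdkn1a, a cell cycle inhibitor that also answers to p53, gave 127.3, 182.2 and 319.3 in KO against 103.7, 76 and 82 in WT (limma adjusted p = 0.000412). The groups did not overlap for any of the 3 genes. The count was 3 with quantile normalization and without KO 1, and 2 without WT 1, where Cdkn1a had an adjusted p of 0.0835. Markers of other cells moved beside these genes. Of 8 fibroblast markers, all 8 positive with a median of 0.42, Col3a1 rose (4 of the 8 with quantile normalization), with sums of 7794 to 9395 in KO and 5852 to 7065 in WT. Of 7 smooth muscle markers Acta2 and Cnn1 rose (0 with quantile normalization and 1 without KO 1), with sums of 6197 to 8103 in KO and 4850 to 5774 in WT. Of 4 mesothelial markers Upk3b rose (limma adjusted p = 7.1e-05), with sums of 277.2 to 370.9 in KO and 137.8 to 177.8 in WT. Their part in the values of the responsive genes was not tested.

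Of 10 LXR responsive genes 3 rose and none fell, with a median of 0.27. Apoe, the lipid carrier protein, gave 1204.5, 1208.1 and 1647.5 in KO 1, 2 and 3, against 996.1, 707.6 and 845 in WT (log2 difference 0.66, limma adjusted p = 0.00388). Scd1 and Fasn, enzymes of fatty acid synthesis, were the others, and KO 2 was the highest heart for both. Scd1 gave 200.1, 1373 and 345.7 in KO 1, 2 and 3 against 112, 73.9 and 105.8 in WT. Fasn gave 82.7, 313.2 and 135.8 in KO against 91.9, 70 and 73.1 in WT, so the groups overlapped. With quantile normalization only Apoe passed, and likewise without WT 1. Among the adipocyte markers, Adipoq gave 54, 390.7 and 323 in KO 1, 2 and 3 against 22.3, 15.7 and 17 in WT. Fabp4 and Cidea did not rise, as given above. The part of these markers in the LXR responsive values was not tested.

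The remaining lists held few changes. Of 9 thyroid hormone responsive genes Myh7, the slow myosin that the hormone represses, rose (311.7, 291.4 and 507.2 in KO 1, 2 and 3, against 180.1, 285 and 160.6 in WT, limma adjusted p = 0.00826), and this was 0.0865 after quantile normalization and 0.231 without WT 1. Without KO 1, 2 genes of the list were higher, the other being Hcn2, a pacemaker channel (adjusted p = 0.00528). Of 4 retinoic acid responsive genes none passed. Of 6 clock genes under ROR control 1 fell, Nr1d1, at 138.5, 129.4 and 123.6 in KO against 238.9, 189.8 and 185.3 in WT (limma adjusted p = 0.0408), and it did not pass without KO 1 (0.06) or without WT 1 (0.094).

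**Figure D4:**
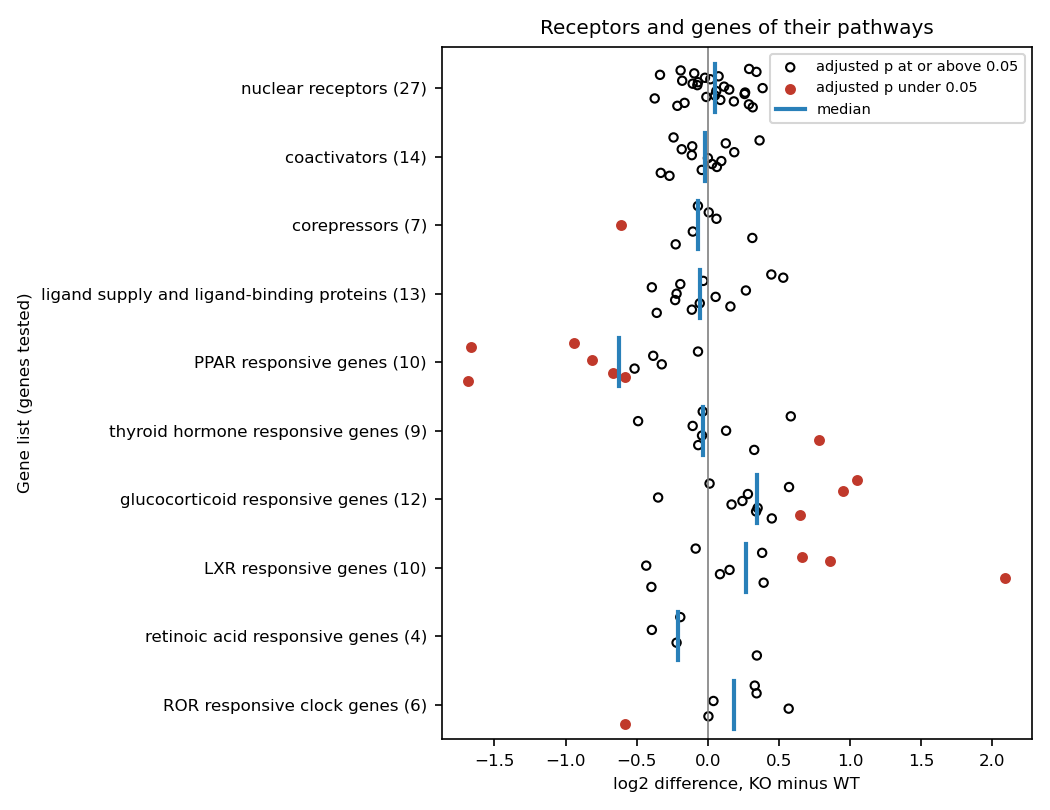
Log2 difference, KO minus WT, of each gene tested among the 27 receptors and 9 lists of genes that work with or respond to them; filled circles have a limma adjusted p under 0.05, open circles do not, and bars mark medians. The receptors, coactivators and ligand genes have no filled circle. All 10 PPAR responsive genes lie below 0, with 6 of them filled. Of 12 glucocorticoid responsive genes 11 lie above 0, with 3 of them filled.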

How the data were processed

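RNA from 3 KO and 3 WT hearts was read on 1 array each. Per the submitters' processing notes the authors used MAS5, and what they deposited is a linear intensity for each probe set, from 0 to 10889.5. No source states the scaling target. Means trimmed by 2% were 60.7, 58.6 and 63.4 in KO 1 to 3 and 72.1, 57.3 and 57.1 in WT 1 to 3, so array levels differed. Signals were used as deposited, as log2(signal + 16), and other scalings were run beside them. Of 45099 probe sets 62 are controls, 34958 have 1 symbol in the platform table, 932 several and 9160 none. By gene identifier all 35 receptors matched the GRCm38 table with 0 changed symbols.

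Probe sets whose mean log2 value over the 6 arrays reached the 40th percentile (4.59) were kept, and the brightest by that mean stood for its gene. Groups were compared over 12946 genes in limma 3.58.1 under R 4.3.3 (lmFit, then eBayes with trend), by two-sided tests adjusted after Benjamini and Hochberg, at 0.05. With 45.6 prior degrees of freedom in the main fit, the variance trend weighs far more in each p than the gene's own spread. The prior degrees of freedom were infinite without KO 1, where the gene's own spread did not enter. They were 7.2 without WT 1 and 6.8 with quantile normalization. An adjusted p can therefore differ between settings at the same log2 difference. The fit was tested on simulated data with planted log2 differences of 1 and 2 in size. An adjusted p under 0.05 was reached by 73% of the first and 98% of the second. Smaller differences were not planted. Nothing in the labels says that equal mouse numbers pair. Leaving a heart out kept the same probe sets.

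The receptors, gene lists and settings were chosen with earlier results of these data known. All 37 receptors are accounted for, Esrra is the check of the labels, and the rule names every gene of the pathway lists that passed the test, while marker genes are mostly given as counts and sums. List sums of markers use the brightest probe set of every gene that has one. Precision is limited by the number of arrays. Each p-value rests more on the variance trend over all genes than on the spread of that gene between these hearts.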

Additional observations from a re-analysis of the deposited data

How the results depend on the processing

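None of the receptors tested passed in the 20 planned settings or in 2 chosen after seeing the data (without KO 1 and WT 1 together, and quantile normalization without KO 1), and the lowest adjusted p of any receptor was 0.0573. With no filter and with no intensity trend, 48 and 114 genes were higher and 18 and 57 lower over all genes, against 231 and 153. With array weights 434 were higher. Leaving out 1 heart gave 105 (WT 1) to 301 (KO 1) higher and 22 (WT 1) to 208 (KO 1) lower, with 123 and 78 without KO 3, and 85 lower without KO 2. The 2 added settings gave 431 and 515 higher, and the second 480 lower. Esrra missed the threshold with robust eBayes (-2.58, adjusted p = 0.307) and without WT 1 (-2.59, 0.0675), with a range of -3.39 to -2.12 over single hearts left out. The median receptor difference was -0.014 as the mean of probe sets, 0.12 without KO 1 and WT 1, and 0.0039 to 0.10 with 1 heart left out. The count of receptors above the filter in WT ran from 20 to 26. Prior degrees of freedom also differed between the settings. The cause of these shifts was not tested.

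The replicate block, by mouse number, gave 237 higher and 175 lower genes and 0 receptors. Deviations of same-numbered hearts correlated at 0.03, -0.02 and 0.03, and 1 of 3 KO hearts correlated best with its own number. With so few hearts these values cannot decide whether equal numbers pair.

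Of 582 receptor values under the settings, 33 changed sign, all in 14 receptors whose main log2 difference was at most 0.191 in size, and none passed the test. Rora was at 0.0045 with median centring, 0.013 with cyclic loess, 0.010 with trimmed mean scaling, 0.080 with array weights, and 0.12 and 0.012 in the added settings. As the mean of probe sets Rxra was at -0.074 and Nr2c2 at -0.014. With array weights Nr2f2 was at -0.043 and Nr3c1 at 0.023. Without KO 1 and WT 1 Nr2f2 was at -0.024, Nr2f6 at 0.0085, Hnf4a at 0.00021 and Nr3c1 at 0.071. With 1 heart left out in turn, the ranges were -0.012 to 0.16 for Ppard, -0.082 to 0.200 for Rarg, -0.24 to 0.040 for Nr1h3, -0.097 to 0.1 for Rora, -0.063 to 0.27 for Nr2c2, -0.16 to 0.088 for Nr2f1, -0.047 to 0.096 for Nr2f2, -0.39 to 0.011 for Nr2f6, -0.15 to 0.066 for Nr3c1, -0.19 to 0.041 for Nr3c2, -0.22 to 0.032 for Nr5a2 and -0.041 to 0.23 for Nr6a1. Dim signals and the number of hearts limit what could be told for the receptors below a signal of 8.17.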
